A study of Mus musculus with 24 samples.

Results

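This account follows 10 genes that set and carry out the fate of epidermal cells in mouse skin: the transcription factor p63 (Trp63), the Notch receptors Notch1 and Notch3, the Notch ligands Jag1 and Jag2, the Notch target Hes1, and 4 transcription factors of terminal differentiation, Klf4, Ovol1, Grhl3 and Znf750. They were chosen by name from the 27180 genes counted in each library, and Znf750 was read under its mouse symbol, Zfp750. These genes and the gene lists used below were chosen with earlier results of these data known. All 10 passed the filter on low counts in every fit. RNA was sequenced from 24 libraries in 8 groups of 3, with 6550011 to 13814448 counted reads per library. In 3 libraries each, ear skin was taken from C57BL/6 mice (C57) and from K14E7 mice (E7), both 8 weeks old and of C57BL/6 strain. The other 18 libraries came from ear skin grafts on C57BL/6 recipients, collected 14 or 28 days after grafting from C57BL/6, K14E7 or CD1dKOxK14E7 donors (CD1dKOxE7, written CD1d-/-xK14E7 in the design text). K14E7 mice carry the E7 oncoprotein of human papillomavirus 16 behind the keratin 14 promoter, which is active in the basal layer of stratified epithelia. CD1dKOxE7 donors carry the same transgene and lack CD1d, which presents lipids to natural killer T cells. No deletion is given for the recipients, whose cells can enter a graft, and no source used here gives the age of the graft donors. The labels do not say whether the 3 grafts of a group came from separate donors, or the 3 ear libraries of a group from separate mice. The p-values for ear and for grafts therefore measure the spread between these libraries.

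The epidermis renews itself from a basal layer of dividing keratinocytes, which move up through spinous and granular layers as they differentiate. p63 maintains the basal program and is required for a stratified epithelium to form. Notch signalling between neighbouring keratinocytes promotes the switch to the spinous state: a ligand of the Jagged or Delta family on one cell releases the intracellular part of a Notch receptor in the next, which joins the DNA-binding protein Rbpj and switches on targets such as the repressor Hes1. Klf4, Ovol1, Grhl3 and Znf750 act later, in cells that leave the cycle and build the skin barrier. Papillomavirus E7 inactivates the retinoblastoma protein and its relatives and thereby keeps suprabasal cells in cycle.

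Promoter sequences from RefSeq (build GRCm38.p6) were matched for 6 of the 10 genes, Notch1, Notch3, Jag1, Jag2, Klf4 and Grhl3; Trp63, Hes1, Ovol1 and Znf750 had no entry. The 250 bases before the start of Klf4 and of Grhl3 are shown, as these were the differentiation factors with an entry. Both lie on the minus strand of chromosome 4. The part of these letters in the levels of the genes was not tested. Capitals mark matches, on either strand, to the Rbpj core TGGGAA, to the CACC box CCACCC of the Klf and Sp families and to the GC box GGGCGG of the Sp family. The upstream bases, 5′ to 3′ on the gene's strand, lie at chr4:55532476-55532725 for Klf4 and at chr4:135573633-135573882 for Grhl3.
Klf4: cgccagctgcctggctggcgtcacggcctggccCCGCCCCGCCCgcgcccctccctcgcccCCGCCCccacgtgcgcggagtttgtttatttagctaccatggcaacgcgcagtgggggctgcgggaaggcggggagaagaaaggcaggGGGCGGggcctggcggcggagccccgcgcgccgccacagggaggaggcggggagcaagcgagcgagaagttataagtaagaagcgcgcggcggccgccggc
Grhl3: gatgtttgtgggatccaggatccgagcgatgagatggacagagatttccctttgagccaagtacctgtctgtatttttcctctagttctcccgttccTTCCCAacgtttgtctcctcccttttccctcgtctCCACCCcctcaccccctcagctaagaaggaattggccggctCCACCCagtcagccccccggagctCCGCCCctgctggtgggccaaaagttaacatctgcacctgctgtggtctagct
The Klf4 sequence held 4 GC boxes, of which 1 pair shared a base, and neither of the other motifs. The Grhl3 sequence held 1 Rbpj core, 2 CACC boxes and 1 GC box. In the sequences not shown, GC boxes numbered 5 for Notch1, 4 for Notch3, 5 for Jag2 and 0 for Jag1. Of 32851 upstream sequences of the same length, 21.6% held TGGGAA, 28.1% held CCACCC and 32.7% held GGGCGG, so each motif is common. A match is a string of letters and no evidence of binding.

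The labels were checked on the transgene and on the deleted gene. E7 had 0 to 2 counts in any C57 library and 42.1 to 57.2 CPM (counts scaled to 1000000 per library) in E7 ear. Cd1d1, one of the CD1d genes of the mouse, was at 13.6, 17.3 and 11.4 CPM in the grafts labelled CD1dKOxE7 at day 14, which overlapped the 14.3 to 16.8 CPM of E7 grafts. At day 28 it was at 5.34, 4.44 and 14.7 CPM, below the 21.4 to 25.8 CPM of E7 grafts. Cd1d2, the other CD1d gene, was at 1.54 to 2.02 CPM against 0.952 to 1.26 CPM in E7 at day 14, and at 0.522 to 1.2 CPM at day 28, where it overlapped E7 grafts. Neither gene set the day 14 grafts labelled CD1dKOxE7 apart as lower, and no source used here says which part was deleted. Replicate 3 labelled CD1dKOxE7 at day 28 stood apart from its group, with 18.8 CPM of E7 against up to 44.4 CPM, and results that rest on it are given with and without it. Ear and graft libraries ran on different flow cells, so that tissue and flow cell cannot be told apart wherever levels in ear and grafts are ranked together. The grafts labelled CD1dKOxE7 ran on another lane than the other grafts, so that this donor and its lane cannot be told apart. In ear and grafts alike, every gene of the epithelial, basal, spinous, granular, endothelial, fibroblast and leukocyte marker lists had counts in every group.

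Most of the 10 genes are first described by broad patterns, which leave out Trp63, Notch1 and Notch3. Trp63 and Notch3 were called higher in E7 than in C57 ear. Notch1 and Notch3 were called lower in grafts labelled CD1dKOxE7 than in E7 grafts at day 14. The 4 differentiation factors were higher in E7 than in C57 skin, in ear and in day 14 grafts for all 4 and in day 28 grafts for 3. Markers of the differentiating layers and of proliferation moved with them. In E7 against C57 ear, 6 of 6 spinous markers rose (39545 to 43351 summed CPM against 16137 to 19400), 8 of 9 granular markers rose and 1 fell (8643 to 10572 against 4547 to 4868), and 4 of 4 proliferation markers rose. In day 14 grafts 4 of 6 spinous, 7 of 9 granular and 4 of 4 proliferation markers rose and 1 granular marker fell; in day 28 grafts 3 of 6, 6 of 9 and 4 of 4 rose and 1 granular marker fell. The part of these markers in the results for the 4 factors was not tested. Jag1 in grafts and Jag2 in ear were lower in E7 skin, whereas Hes1 stayed within 1.19-fold across all 8 group means and passed the test in no comparison. In E7 against C57 ear, 7 of the 10 genes passed an adjusted p of 0.05 (6 higher, 1 lower), and 65.3% of the 15720 genes tested did so (32.6% higher, 32.7% lower), so that the count is near the background. In the day 14 grafts, 5 of 10 passed in E7 against C57 (4 higher, 1 lower), where 30.2% of 16189 genes did (15.8% higher, 14.4% lower). In the day 28 grafts, 4 of 10 passed (3 higher, 1 lower) against 35.4% of all genes (20.7% higher, 14.7% lower). For grafts labelled CD1dKOxE7 against E7 at day 14, 6 of 10 passed (1 higher, 5 lower) against 29.8% of all genes (15.1% higher, 14.8% lower). At day 28 the same comparison called 0 of the 10 by edgeR's quasi-likelihood test and 0 by DESeq2. An unadjusted p under 0.05 was found for 4, and the share of all genes under it was not taken. Of all genes, 0.21% were called by edgeR (0.0741% higher, 0.136% lower). That share rests on single libraries: 34 genes were called, 304 of 16439 (1.85%) without replicate 3 labelled CD1dKOxE7, 57 and 6 without its replicates 2 and 1, and 4 to 8 without any 1 of the E7 grafts, while DESeq2 called 244. The 3 libraries of a group did not overlap those of the other for 7, 6, 4, 7 and 3 of the 10 genes, and for 71.1%, 47.2%, 53.2%, 42.5% and 16.2% of all genes. The median log2 fold change of the 10 genes was 0.30, 0.13, 0.19, -0.44 and 0.05 in these 5 comparisons, and that of all genes was 0.0025, -0.04, 0.0061, -0.03 and 0.0011. Comparisons that share E7 grafts of a day are not independent of each other.

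**Figure D1:**
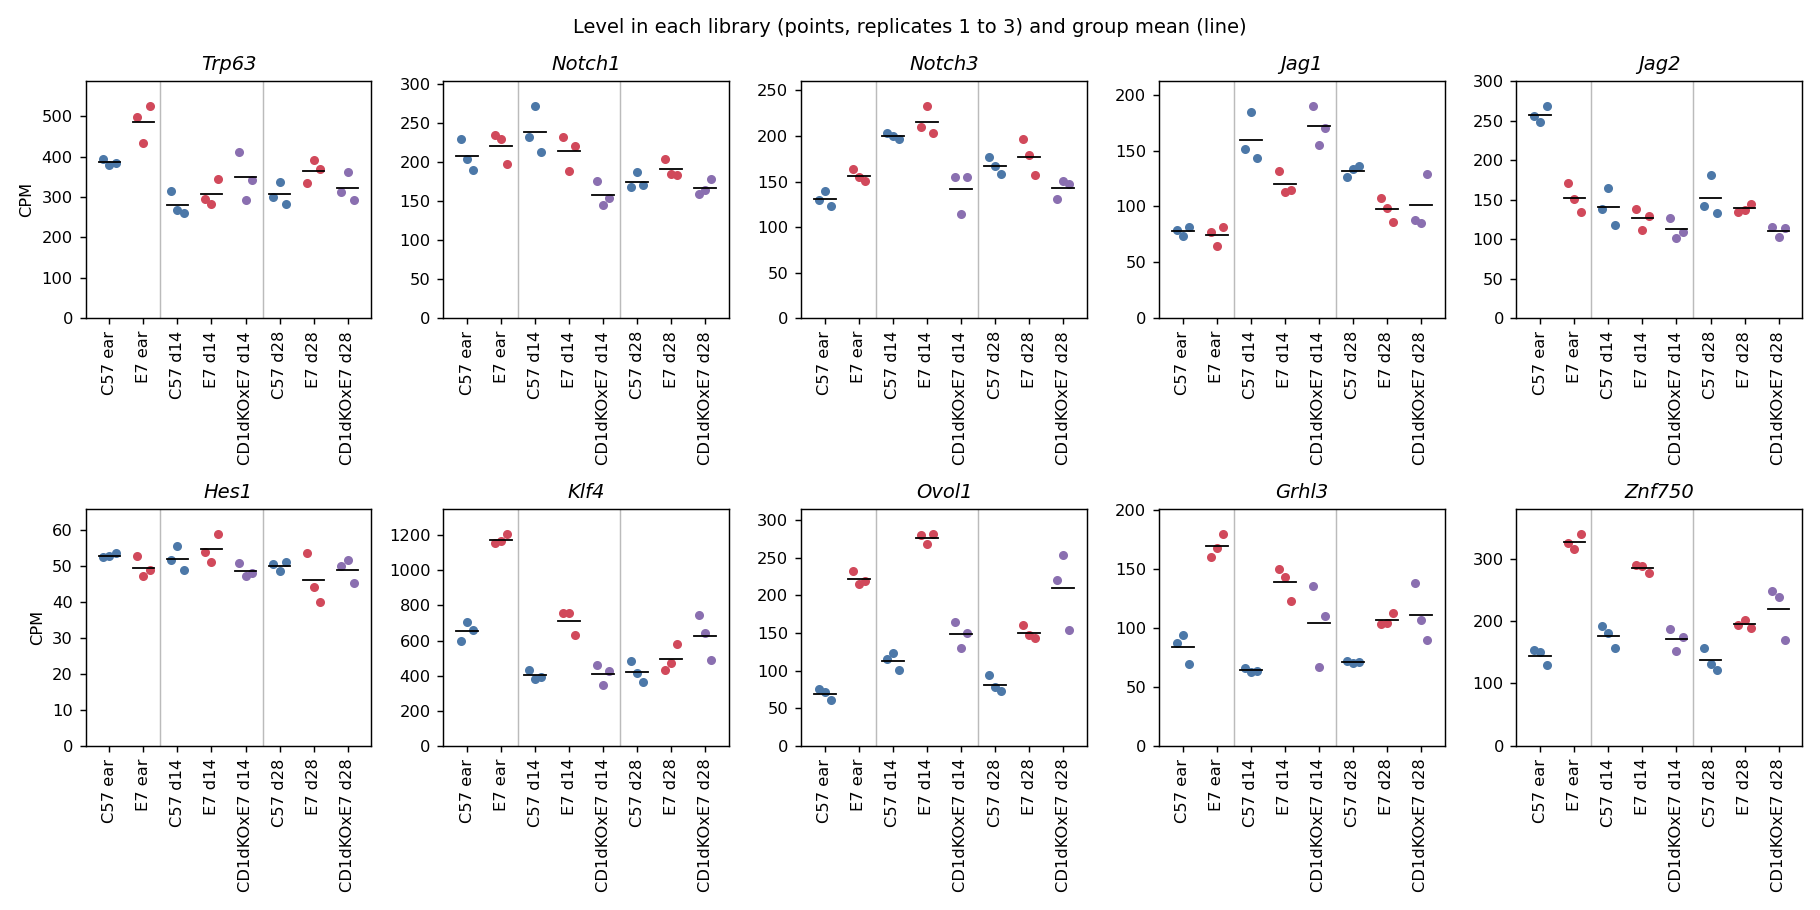
Level of each of the 10 genes in CPM (vertical axis from 0) in each library (points, 3 per group) with the group mean (line), for C57 (blue), E7 (red) and CD1dKOxE7 (purple) skin; grey lines separate ear, day 14 grafts and day 28 grafts. Ovol1 lies between 60.9 and 75.0 CPM in C57 ear and between 215 and 232 CPM in E7 ear, while Hes1 lies between 40.1 and 58.8 CPM in all 24 libraries.

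**Figure D2:**
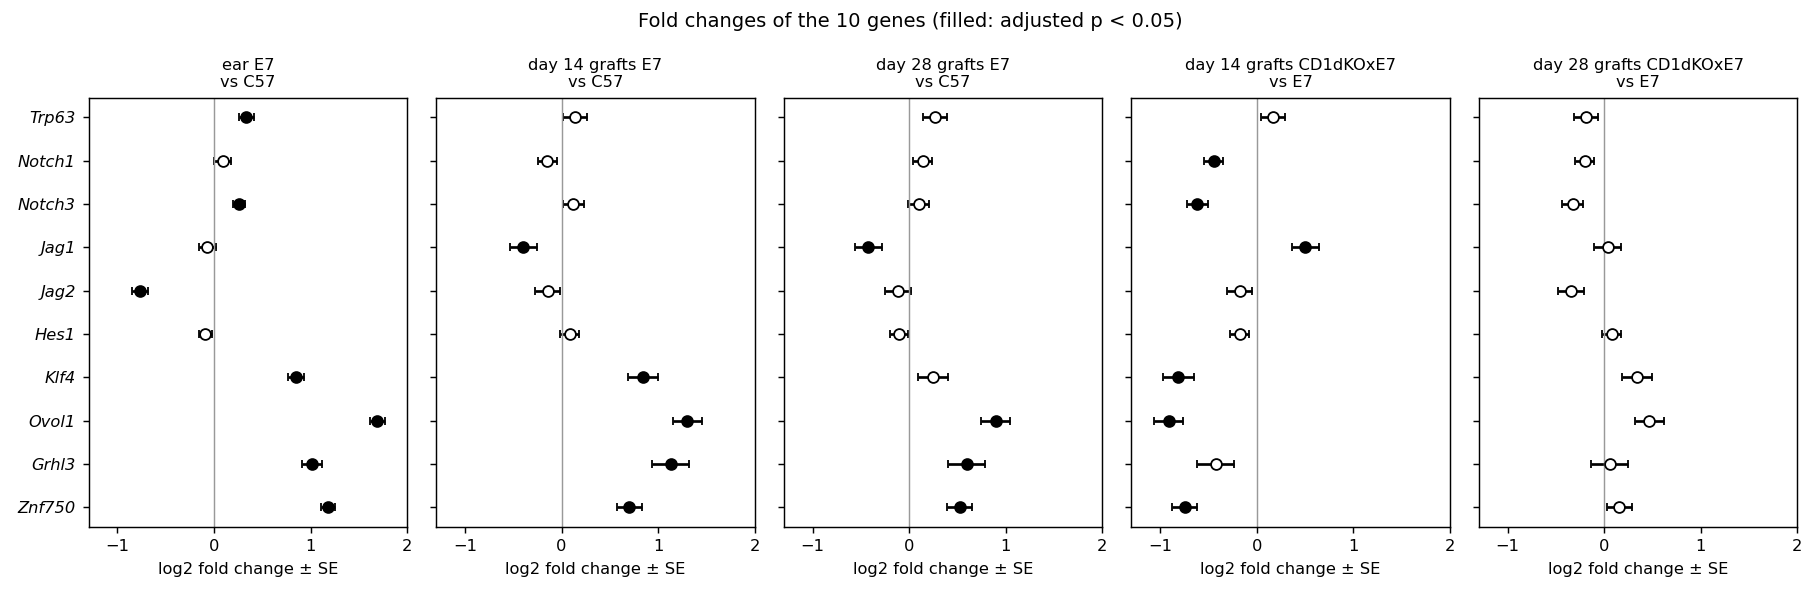
Log2 fold change (horizontal axis) with its standard error for the 10 genes in the 5 comparisons of donors, filled where the adjusted p is below 0.05. Klf4, Ovol1 and Znf750 are to the right in E7 against C57 at day 14 and to the left in CD1dKOxE7 against E7 at day 14, and no symbol is filled in the last panel.

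Levels of different genes were compared only per kilobase of exon. In C57 ear Klf4 was the highest of the 10, at 214 ± 18.0 CPM per kilobase (SD, n = 3), followed by Trp63 at 45.9 ± 0.884 and Znf750 at 44.6 ± 4.15 CPM per kilobase. Jag1 was the lowest, at 13.4 ± 0.737 CPM per kilobase, with Notch1 at 14.6 ± 1.41 and Notch3 at 16.2 ± 1.05. In E7 ear Klf4 reached 385 ± 9.01 and Znf750 101 ± 3.70 CPM per kilobase. The exon length is the union over all annotated transcripts, so that a gene with several starts or ends, such as Trp63, is understated, and its TA and ΔN isoforms are not separated in counts per gene.

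Trp63, which marks and maintains the basal layer, was at 394, 379 and 384 CPM in C57 ear and at 499, 435 and 524 CPM in E7 ear. All 3 E7 libraries were above all 3 C57 libraries. It rose 1.26-fold in E7 ear (log2 fold change 0.33 ± 0.08 SE, adjusted p = 0.00289), but relative to a panel of 16 epithelial genes, described below, its value was -0.16 ± 0.11 and the groups overlapped. Relative to 10 basal keratinocyte genes it was 0.37 ± 0.08 with no overlap. Of these basal markers 1 of 10 rose and 6 fell in the same comparison, with a median log2 fold change of -0.68, while their summed level overlapped (13219 to 15940 CPM in E7 and 14241 to 15610 in C57 ear). In grafts it was at 315, 267 and 261 CPM in C57 and 296, 283 and 344 CPM in E7 at day 14, which overlapped (0.14 ± 0.13, adjusted p = 0.406). Day 28 grafts held 301, 336 and 283 CPM in C57 and 335, 390 and 369 CPM in E7, again with overlap (0.27 ± 0.13, adjusted p = 0.108; 0.037 in a fit of these 2 groups alone). Grafts labelled CD1dKOxE7 held 412, 292 and 343 CPM at day 14 and 313, 362 and 292 CPM at day 28, overlapping E7 grafts on both days. By group mean, E7 ear was highest, at 486 ± 46.2 CPM (SD, n = 3), and was the only group that did not overlap the next one in order; C57 grafts at day 14 were lowest, at 281 ± 29.7 CPM. In bulk skin, fewer cells of a type and less RNA per cell cannot be told apart.

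Notch1, the receptor best known for driving keratinocytes out of the basal layer, was at 229, 203 and 190 CPM in C57 ear and 234, 230 and 197 CPM in E7 ear. The groups overlapped (0.09 ± 0.09, adjusted p = 0.388; -0.03 with upper quartile scaling), and so did E7 and C57 grafts, with -0.15 ± 0.10 at day 14 (adjusted p = 0.275) and 0.14 ± 0.10 at day 28 (adjusted p = 0.281). Grafts labelled CD1dKOxE7 at day 14 were at 175, 145 and 153 CPM, below the 232, 189 and 221 CPM of every E7 graft. Notch1 fell 1.36-fold there (log2 fold change -0.45 ± 0.10, adjusted p = 0.00313). Relative to the epithelial panel that difference was -0.02 ± 0.12 and the groups overlapped. At day 28 the grafts labelled CD1dKOxE7 held 159, 164 and 178 CPM against 204, 185 and 183 CPM in E7, with no overlap and a value of -0.20 ± 0.10 that did not pass (adjusted p = 0.408). C57 grafts at day 14 had the highest group mean, 239 ± 29.5 CPM, and grafts labelled CD1dKOxE7 at day 14 the lowest, 158 ± 15.3 CPM, and every group overlapped the next in order. Exons of Notch1 overlap 0610009E02Rik and Gm13568 on the opposite strand (7.5% and 2.91% of its exon bases), and no source used here gives the strand of the counts.

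Notch3, a receptor of keratinocytes that is also abundant in vascular smooth muscle, was at 130, 140 and 123 CPM in C57 ear and 164, 155 and 151 CPM in E7 ear. The groups did not overlap, and Notch3 rose 1.20-fold in E7 ear (0.26 ± 0.07, adjusted p = 0.00442). The call ended with upper quartile scaling (0.14, adjusted p = 0.0746), and relative to the epithelial panel the direction turned, to -0.23 ± 0.05 with no overlap between groups (exact two-sided permutation p = 0.1, the smallest that 3 against 3 libraries allow). Vascular smooth muscle and pericyte markers went the other way in E7 ear, where 7 of 7 fell (134 to 164 summed CPM against 335 to 366). Day 14 grafts held 203, 200 and 197 CPM in C57 and 210, 232 and 204 CPM in E7, every E7 graft above every C57 graft, but the value did not pass (0.12 ± 0.11, adjusted p = 0.417). Grafts labelled CD1dKOxE7 held 156, 114 and 156 CPM, below every other graft of that day. Notch3 fell 1.53-fold against E7 (-0.62 ± 0.11, adjusted p = 0.000486), and by -0.20 ± 0.09 with overlap relative to the panel. The vascular smooth muscle markers overlapped in that comparison, at 336 to 380 summed CPM in grafts labelled CD1dKOxE7 and 349 to 393 in E7, with 0 of 8 called by edgeR. In E7 against C57 grafts 2 of 8 fell at day 14 and 3 of 8 at day 28. At day 28, Notch3 was at 177, 167 and 158 CPM in C57, 196, 179 and 157 CPM in E7 and 131, 150 and 147 CPM in grafts labelled CD1dKOxE7. The last were below every E7 graft, by a log2 value of -0.33 ± 0.11 that did not pass (adjusted p = 0.213; -0.34 ± 0.12, adjusted p = 0.151 without replicate 3). In that comparison 1 of 8 vascular smooth muscle markers fell, with 187 to 330 summed CPM against 272 to 336 in E7. The part of these markers in the Notch3 values was not tested. E7 grafts at day 14 had the highest mean, 215 ± 15.1 CPM, and did not overlap the C57 grafts of that day, which followed at 200 ± 3.12 CPM; C57 ear was lowest, at 131 ± 8.50 CPM. Gm17276 overlaps 6.03% of its exon bases on the opposite strand.

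Jag1, a Notch ligand of basal and follicular keratinocytes that endothelium also makes, was at 79.0, 73.5 and 82.0 CPM in C57 ear and 77.4, 64.5 and 81.7 CPM in E7 ear. The groups overlapped (-0.07 ± 0.09, adjusted p = 0.512), while 10 of 10 endothelial markers fell. In day 14 grafts it was at 152, 184 and 143 CPM in C57 and 132, 113 and 115 CPM in E7, with every E7 graft lower. Jag1 fell 1.32-fold (-0.40 ± 0.14, adjusted p = 0.0414), a call that ended without C57 replicate 1 or 2 (adjusted p = 0.0601 and 0.174) and without E7 replicate 2 or 3 (0.135 and 0.103). Day 28 grafts held 126, 133 and 136 CPM in C57 and 107, 98.3 and 86.5 CPM in E7, again with every E7 graft lower. It fell 1.34-fold (-0.42 ± 0.14, adjusted p = 0.0292), a call that ended without C57 replicate 2 or 3 (0.0675 and 0.0793) and without E7 replicate 2 or 3 (0.0681 and 0.116). Endothelial markers were lower as well in E7 grafts. At day 14, 2 of 10 were called, with 331 to 371 summed CPM against 423 to 526 in C57. At day 28, 9 of 10 were called, with 284 to 288.2 against 418 to 470. Hair follicle markers had 1 of 8 called lower on each day, with median log2 fold changes of -0.80 and -1.01. Their sums overlapped, at 1382 to 5416 CPM in E7 and 4418 to 7866 in C57 at day 14. At day 28 these sums overlapped at 249 to 594 and 503 to 1131 CPM. The part of both lists in the result was not tested. In grafts labelled CD1dKOxE7 at day 14, Jag1 was at 189, 155 and 170 CPM, above every E7 graft, and rose 1.42-fold (0.51 ± 0.14, adjusted p = 0.012). That call ended without E7 replicate 2 (adjusted p = 0.0507) or CD1dKOxE7 replicate 1 (0.0515). Endothelial markers were at 401 to 417 summed CPM in those grafts, with 2 of 10 called higher. At day 28 those grafts held 88.1, 85.6 and 129 CPM, where the highest value is replicate 3. The difference from E7 was 0.04 ± 0.14 with that library and -0.17 ± 0.12 without it, and neither passed. By group mean, grafts labelled CD1dKOxE7 at day 14 were highest, at 172 ± 17.2 CPM, and overlapped the C57 grafts of that day at 160 ± 21.9; both ear groups were below all grafts.

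Jag2, the second ligand, was at 256, 248 and 268 CPM in C57 ear and 171, 150 and 134 CPM in E7 ear. C57 ear thus stood above all 7 other groups, whose means ran from 110 to 152 CPM, though the grafts among them ran on another flow cell. Jag2 fell 1.70-fold in E7 ear (-0.76 ± 0.08, adjusted p = 1.2e-05), and by -1.26 ± 0.15 on the log2 scale relative to the epithelial panel. Among day 14 grafts it was at 138, 165 and 118 CPM in C57 and 138, 111 and 129 CPM in E7, with overlap (-0.14 ± 0.13, adjusted p = 0.433). At day 28 C57 held 142, 181 and 133 CPM and E7 135, 137 and 145 CPM, also with overlap (-0.11 ± 0.13, adjusted p = 0.52). The E7 difference was 0.61 ± 0.17 higher in day 14 grafts than in ear (adjusted p = 0.026) and 0.63 ± 0.17 higher in day 28 grafts (adjusted p = 0.0311). Of the 10 genes, 1 and 3 passed these tests of the difference between tissues, with 12.6% (4.02% higher, 8.61% lower) and 7.43% (2.29% higher, 5.13% lower) of 16612 genes. The first call ended in 4 of 12 fits that left out 1 library, C57 ear replicate 3 (adjusted p = 0.0612), E7 ear replicate 3 (0.0796) and E7 graft replicates 1 (0.0503) and 3 (0.0546), and the second ended in 9 of 12: without C57 ear replicate 1 or 3, E7 ear replicate 2 or 3, C57 graft replicate 1 or 3, or E7 graft replicate 1, 2 or 3, with adjusted p from 0.0514 to 0.0909. Grafts labelled CD1dKOxE7 held 127, 101 and 109 CPM at day 14 and 115, 102 and 114 CPM at day 28. The latter were below every E7 graft, by -0.34 ± 0.13 that did not pass (adjusted p = 0.292).

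Hes1, a repressor that Notch switches on directly, had group means from 46.0 to 54.6 CPM. It was at 52.4, 52.8 and 53.5 CPM in C57 ear and 52.7, 47.1 and 48.9 CPM in E7 ear. The groups overlapped (-0.09 ± 0.07, adjusted p = 0.249; -0.21 and called with upper quartile scaling, adjusted p = 0.0146). In grafts, the E7 libraries overlapped C57 on both days, with 0.08 ± 0.10 at day 14 (adjusted p = 0.539) and -0.11 ± 0.10 at day 28 (adjusted p = 0.418). Grafts labelled CD1dKOxE7 at day 14 were at 50.8, 47.3 and 47.9 CPM, below the 53.8, 51.1 and 58.8 CPM of E7, with a value of -0.18 ± 0.10 that did not pass (adjusted p = 0.192). Every group overlapped its neighbour in the order of means. Relative to the epithelial panel, Hes1 was lower in E7 than in C57 ear with no overlap (-0.58 ± 0.10 on the log2 scale).

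Klf4, a zinc finger factor needed for the skin barrier, was at 596, 705 and 657 CPM in C57 ear and 1154, 1165 and 1206 CPM in E7 ear. The E7 ear group stood above every other group of the series. Klf4 rose from a mean of 653 ± 55.0 to 1175 ± 27.5 CPM (SD, n = 3; log2 fold change 0.85 ± 0.08, adjusted p = 4.66e-06). In day 14 grafts it was at 430, 379 and 395 CPM in C57 and 755, 754 and 633 CPM in E7, a rise (0.84 ± 0.16, adjusted p = 0.00129). Grafts labelled CD1dKOxE7 were at 461, 345 and 425 CPM on that day, below every E7 graft and overlapping C57 grafts. Klf4 fell 1.75-fold there against E7 (-0.81 ± 0.16, adjusted p = 0.00109). At day 28 it was at 485, 413 and 367 CPM in C57, 431, 469 and 579 CPM in E7 and 748, 643 and 491 CPM in grafts labelled CD1dKOxE7. Neighbouring groups overlapped, and neither E7 against C57 (0.24 ± 0.16, adjusted p = 0.235) nor CD1dKOxE7 against E7 passed (0.34 ± 0.16, adjusted p = 0.384; 0.49 ± 0.14, adjusted p = 0.0883 without replicate 3).

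Ovol1, a zinc finger repressor linked to cell cycle exit in the epidermis, changed most among the 10 genes between group means, by 4.01-fold. It was at 75.0, 71.0 and 60.9 CPM in C57 ear and 232, 215 and 220 CPM in E7 ear. Ovol1 rose 3.23-fold (1.69 ± 0.08, adjusted p = 2.25e-08). Among day 14 grafts it was at 115, 123 and 100.3 CPM in C57 and 280, 268 and 281 CPM in E7, a rise of 2.47-fold (1.30 ± 0.15, adjusted p = 4.24e-05). Grafts labelled CD1dKOxE7 lay between these groups without overlapping either, at 164, 130 and 150 CPM. Ovol1 fell 1.88-fold in them against E7 (-0.91 ± 0.15, adjusted p = 0.000286). Day 28 grafts held 93.8, 77.7 and 73.0 CPM in C57 and 161, 147 and 143 CPM in E7, and rose 1.87-fold (0.90 ± 0.15, adjusted p = 0.00039). Grafts labelled CD1dKOxE7 held 220, 254 and 155 CPM on that day, with replicates 1 and 2 above every E7 graft and replicate 3 within their range. Ovol1 did not pass against E7 with that library (0.47 ± 0.15, adjusted p = 0.198) and rose without it (0.65 ± 0.12, adjusted p = 0.012). Gm31166 and AC126029.1 overlap 19.8% and 2.18% of the Ovol1 exon bases on the opposite strand.

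Grhl3, a grainyhead factor that activates barrier genes, was at 87.7, 94.2 and 69.9 CPM in C57 ear and 160, 168 and 180 CPM in E7 ear. It rose 2.02-fold (1.02 ± 0.10, adjusted p = 1.86e-05). Day 14 grafts held 66.0, 62.7 and 63.6 CPM in C57 and 150, 144 and 123 CPM in E7, and rose 2.19-fold (1.13 ± 0.19, adjusted p = 0.000786). The 3 grafts labelled CD1dKOxE7 spread from 67.3 to 136 CPM, which overlapped E7 (-0.42 ± 0.19, adjusted p = 0.108; -0.66, adjusted p = 0.0152 without replicate 1). At day 28, C57 grafts held 71.7, 70.4 and 71.6 CPM and E7 grafts 103, 104 and 112 CPM. Grhl3 rose 1.51-fold (0.60 ± 0.19, adjusted p = 0.0255) with no overlap, but the call ended without C57 replicate 1, 2 or 3 (adjusted p = 0.0634, 0.063 and 0.0637), without E7 replicate 2 or 3 (0.0517 and 0.0709) and without the filter on low counts (0.0527). Grafts labelled CD1dKOxE7 spread from 89.6 to 138 CPM at day 28 and overlapped E7.

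Znf750, a p63 target required for terminal differentiation, was at 154, 150 and 129 CPM in C57 ear and 324, 316 and 339 CPM in E7 ear. It rose 2.27-fold (1.18 ± 0.08, adjusted p = 2.25e-07). In day 14 grafts it was at 191, 181 and 158 CPM in C57 and 290, 288.1 and 277 CPM in E7, a rise of 1.63-fold (0.70 ± 0.13, adjusted p = 0.00122). Grafts labelled CD1dKOxE7 were at 187, 152 and 174 CPM, overlapping C57 and below every E7 graft. Znf750 fell 1.68-fold in them against E7 (-0.75 ± 0.13, adjusted p = 0.00045). At day 28 it was at 158, 131 and 122 CPM in C57 and 194, 202 and 188 CPM in E7, and rose 1.44-fold (0.52 ± 0.13, adjusted p = 0.00592). Grafts labelled CD1dKOxE7 held 248, 239 and 170 CPM and overlapped E7, with 0.16 ± 0.13 (adjusted p = 0.651) and 0.32 ± 0.11 without replicate 3 (adjusted p = 0.125).

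E7 skin held more epithelial transcript, and the differences were therefore also taken relative to 16 epithelial genes. Among them are Cdh1, Dsp and Jup of the junctions, the splicing regulators Esrp1 and Esrp2, and Evpl, Ppl and Ocln. Whether these genes are even across the epidermal layers was not tested, so the panel may itself move with differentiation. In E7 ear 15 of the 16 rose, with 10245 to 10732 summed CPM against 6717 to 8164 in C57, while 10 of 10 endothelial and 5 of 5 fibroblast markers fell. The ratio is the log2 of the gene's count plus 0.5 over the summed panel count, and no p from 3 against 3 libraries can go below 0.1 (exact two-sided permutation test). On this scale 11.2% of genes were higher and 65.6% lower without overlap in E7 ear, against 35.4% and 35.7% by CPM. All 4 differentiation factors were among the higher ones: Klf4 by 0.36 ± 0.10, Ovol1 by 1.20 ± 0.05, Grhl3 by 0.53 ± 0.07 and Znf750 by 0.69 ± 0.04. The 5 lower ones were Notch1 (-0.40 ± 0.11), Notch3, Jag1 (-0.56 ± 0.15), Jag2 and Hes1, so that only Trp63 overlapped. At day 14 the same 4 factors were higher in E7, from 0.38 ± 0.06 for Znf750 to 0.98 ± 0.10 for Ovol1, where 6.37% of genes were higher. Notch1 (-0.47 ± 0.15), Jag1 (-0.72 ± 0.14) and Jag2 (-0.46 ± 0.16) were lower, with 48.2% of genes. At day 28 Ovol1 (0.68 ± 0.12), Grhl3 (0.37 ± 0.02) and Znf750 (0.30 ± 0.11) were higher, with 13.7% of genes, and Jag1 (-0.66 ± 0.13), Jag2 (-0.33 ± 0.14) and Hes1 (-0.35 ± 0.15) lower, with 44.1%. Jag1 was thus lower in E7 in ear and on both days relative to the panel. With the 10 basal genes as the denominator, the 4 factors stayed higher without overlap in E7 ear and at day 14. No share of all genes was taken with that denominator, here or below. Those basal genes were themselves lower in E7 ear in 6 of 10 cases, and on that scale Notch3 was higher in E7 ear (0.31 ± 0.10, no overlap), while Notch1 (0.13 ± 0.16), Jag1 (-0.03 ± 0.09) and Hes1 (-0.05 ± 0.05) overlapped and Jag2 (-0.72 ± 0.10) stayed lower. At day 28 Znf750 overlapped (0.14 ± 0.14).

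In grafts labelled CD1dKOxE7 at day 14, the panel genes themselves were lower than in E7 (8 of 16 fell, none rose), and 48.0% of genes were higher and 2.95% lower relative to it. Klf4 (-0.39 ± 0.06), Ovol1 (-0.49 ± 0.08) and Znf750 (-0.33 ± 0.07) were among the lower ones. Trp63 (0.59 ± 0.14) and Jag1 (0.93 ± 0.08) were among the higher ones. Relative to the basal genes, of which 3 of 10 rose and 1 fell, Trp63 changed sign (-0.13 ± 0.19) and both overlapped (Jag1 at 0.21 ± 0.16). The summed basal level overlapped, at 14016.5 to 21644 CPM in these grafts and 13726 to 16229 CPM in E7 grafts. Klf4 (-1.11 ± 0.10), Ovol1 (-1.21 ± 0.15) and Znf750 (-1.05 ± 0.14) were lower without overlap relative to the basal genes. So were Notch1 (-0.74 ± 0.20), Notch3 (-0.92 ± 0.09) and Grhl3 (-0.77 ± 0.12), while Jag2 (-0.47 ± 0.19) and Hes1 (-0.47 ± 0.23) overlapped. Relative to the panel at day 28, Klf4 (0.40 ± 0.15) and Ovol1 (0.51 ± 0.17) were higher and Jag2 (-0.27 ± 0.10) lower, where 14.0% and 3.6% of genes were. Without replicate 3 labelled CD1dKOxE7 these values were 0.50, 0.64 and -0.36. Relative to the 10 basal genes all 3 overlapped, at 0.43 ± 0.24, 0.54 ± 0.29 and -0.24 ± 0.12. Over all 50 values of the 5 comparisons, 30 did not overlap relative to the panel. By comparison these were 9, 7, 6, 5 and 3 of 10, with 76.9%, 54.5%, 57.8%, 50.9% and 17.6% of all genes. With the 10 basal keratinocyte genes as the denominator 25 did not overlap, and no share of all genes was taken for that count.

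**Figure D3:**
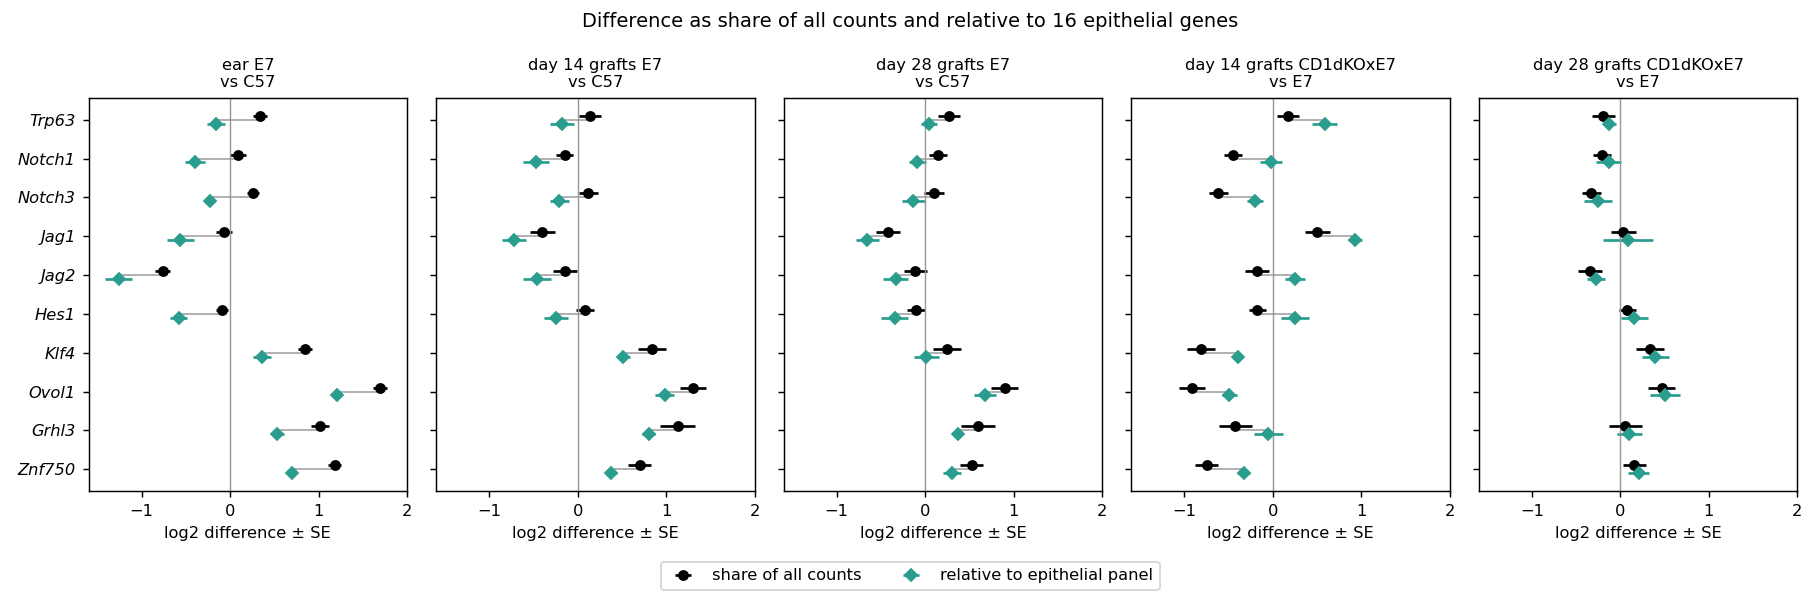
Log2 difference (horizontal axis, with SE) of each of the 10 genes as a share of all counts (black circles) and relative to 16 epithelial genes (green diamonds) in the 5 comparisons of donors. In E7 ear the diamonds lie left of the circles, with Trp63 moving from 0.33 to -0.16 and Ovol1 from 1.69 to 1.20, whereas in CD1dKOxE7 against E7 at day 14 they lie right of them.

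The grafts labelled CD1dKOxE7 differed from E7 grafts at day 14 in much besides these genes. All 6 leukocyte markers were higher, with 816 to 953 summed CPM against 209 to 301 in E7. Spinous markers fell in 6 of 6 genes, with 13822 to 20325 summed CPM against 44863 to 84841, and granular markers in 7 of 9. The E7 transgene itself was at 17.6 to 23.5 CPM against 33.8 to 40.6 CPM. Among proliferation markers 3 of 4 fell. The part of these differences, and of the lane, in the values of Notch1, Notch3, Jag1, Klf4, Ovol1 and Znf750 was not tested. At day 28 none of the epithelial, spinous, granular or leukocyte markers was called by edgeR, and replicate 3 of those grafts held the lowest spinous sum (22209 CPM, with 45675 at most) and the highest leukocyte sum (719 CPM, with 344 at least).

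**Figure D4:**
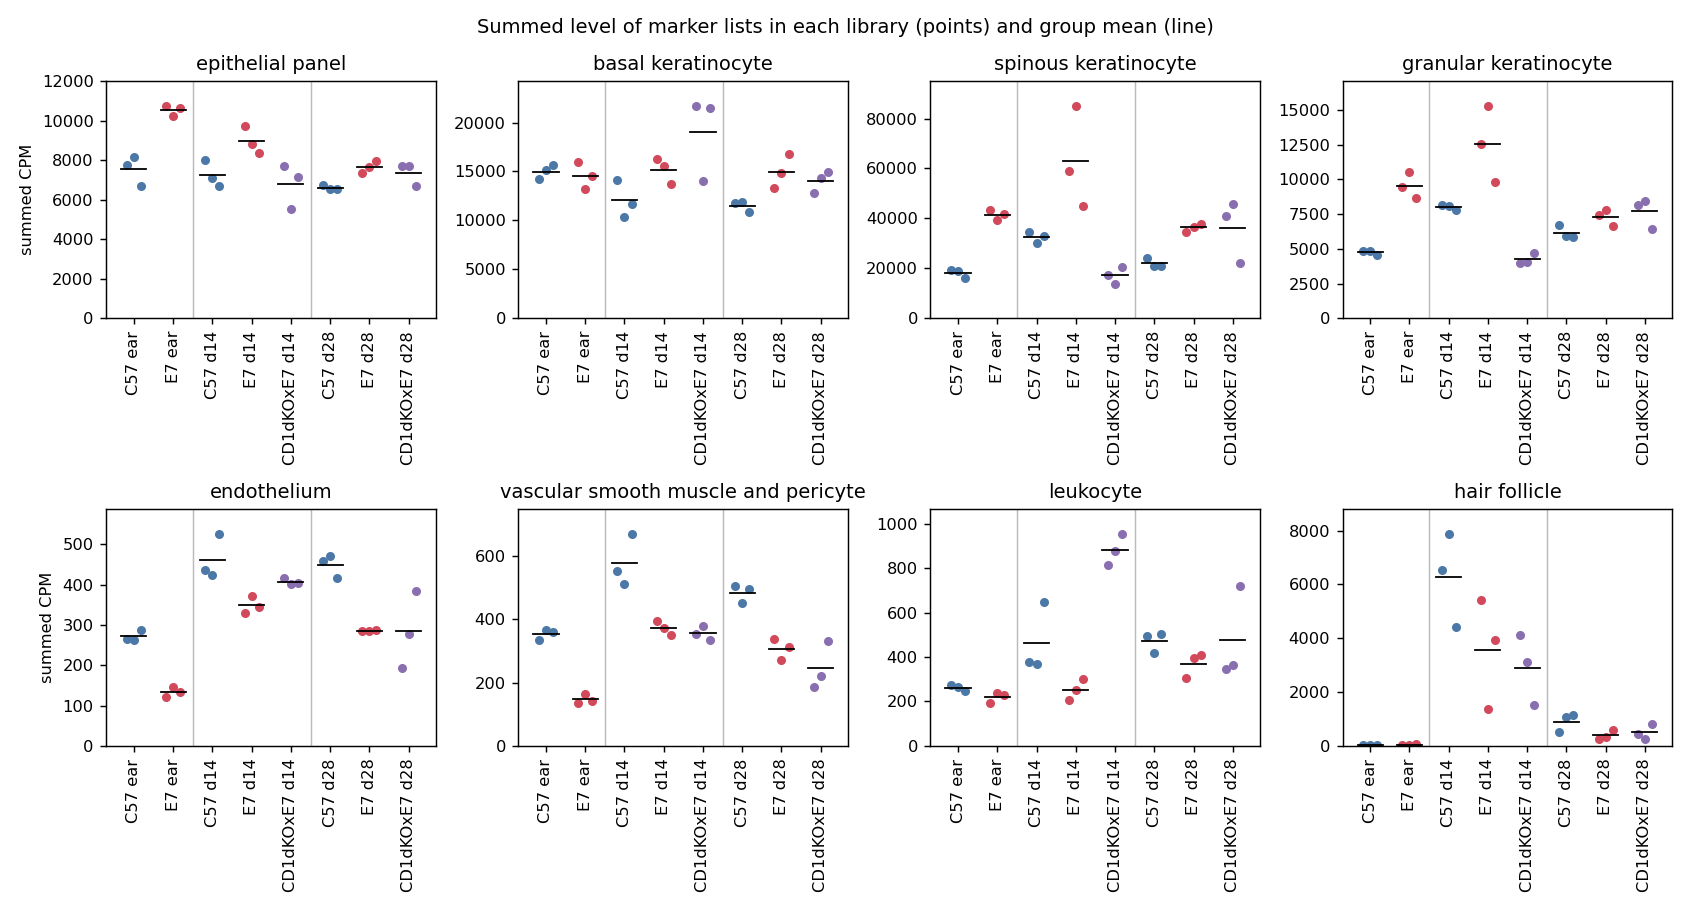
Summed level of 8 marker lists in CPM (vertical axes from 0) in each library (points) with the group mean (line), coloured by donor as C57 (blue), E7 (red) and CD1dKOxE7 (purple). Leukocyte markers in CD1dKOxE7 grafts at day 14 lie between 816 and 953 CPM, above every other group, and the spinous sum of these grafts lies below every E7 graft of that day.

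Between day 14 and day 28, Klf4, Ovol1 and Znf750 went down in E7 grafts and up in grafts labelled CD1dKOxE7. In C57 grafts 2 of 10 genes were lower at day 28 than at day 14, Notch1 (-0.44 ± 0.10, adjusted p = 0.00537) and Ovol1 (-0.46 ± 0.15, adjusted p = 0.0397), and 22.6% of all genes were called (8.4% higher, 14.2% lower). The Ovol1 call ended without day 14 replicate 1 or 2 (adjusted p = 0.101 and 0.135), without day 28 replicate 2 or 3 (0.115 and 0.142), with upper quartile scaling (0.0707) and without the filter on low counts (0.0778). Znf750 just missed the threshold (-0.35 ± 0.13, adjusted p = 0.0624) and passed without day 14 replicate 3 (0.0429) or day 28 replicate 1 (0.0324). In E7 grafts 3 of 10 fell, against 17.2% of all genes (7.68% higher, 9.48% lower): Klf4 (-0.52 ± 0.16, adjusted p = 0.0337), Ovol1 (-0.86 ± 0.15, adjusted p = 0.00225) and Znf750 (-0.53 ± 0.13, adjusted p = 0.0125). The Klf4 call ended without day 14 replicate 1 or 2 (0.11 and 0.104), without day 28 replicate 1 or 2 (0.131 and 0.107) and without the filter on low counts (0.0503), and Hes1 (-0.23 ± 0.10, adjusted p = 0.112) passed without day 28 replicate 1 (0.0275). Granular markers fell with them, 6 of 9 in C57 and 7 of 9 in E7 grafts, as did 7 of 8 and 5 of 8 hair follicle markers; their part in the result was not tested.

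In grafts labelled CD1dKOxE7 the same factors went up from day 14 to day 28. Klf4 (0.63 ± 0.16, adjusted p = 0.0094), Ovol1 (0.52 ± 0.15, adjusted p = 0.0205) and Znf750 (0.37 ± 0.13, adjusted p = 0.0489) rose and Jag1 fell (-0.75 ± 0.14, adjusted p = 0.00166), 4 of 10 against 22.6% of all genes (10.8% higher, 11.8% lower; 31.3% without day 28 replicate 3, where the same 4 were called). Between days, the libraries did not overlap for 6 of 10 genes in C57, 6 in E7 and 2 in these grafts, and for 43.1%, 39.6% and 30.9% of all genes. Of these, Ovol1 and Znf750 overlapped between days. Without day 28 replicate 3 all 4 were further from 0, with Klf4 at 0.78, Ovol1 at 0.70, Znf750 at 0.53 and Jag1 at -0.96. Other libraries decided the calls in the opposite way: Ovol1 was lost without day 14 replicate 2 or 3 (adjusted p = 0.078 and 0.0542) and without day 28 replicate 1 or 2 (0.0748 and 0.119). Klf4 was lost without day 28 replicate 1 (0.0586), and Znf750 was kept in 1 of 6 such fits, with an adjusted p of up to 0.221, the exception being the fit without day 28 replicate 3. Znf750 was also lost with RLE scaling (0.0512) and without the filter on low counts (0.0527). A fit of these 2 groups alone called Jag1 and not Klf4 (0.0772), Ovol1 (0.137) or Znf750 (0.191). Spinous markers rose in 5 of 6 genes and granular markers in 6 of 9 over the same days, and 3 of 6 leukocyte markers fell. Of the cell types that also make Jag1, 6 of 8 hair follicle and 5 of 10 endothelial markers fell, and so did 3 of 8 vascular smooth muscle markers. The part of all these markers in the results was not tested.

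The difference between days in the CD1dKOxE7 against E7 comparison was tested directly. For Klf4 it was 1.15 ± 0.22 (adjusted p = 0.00467), for Ovol1 1.38 ± 0.21 (adjusted p = 0.0012) and for Znf750 0.90 ± 0.18 (adjusted p = 0.00616), each called in all 12 fits that left out 1 library. They were the 3 of 10 genes called, against 12.8% of all genes (6.54% higher, 6.31% lower; 24.1% without replicate 3 labelled CD1dKOxE7 at day 28, where 4 of the 10 were called), and 6 of 6 spinous and 7 of 9 granular markers moved the same way. Jag1 had the opposite sign (-0.47 ± 0.20, adjusted p = 0.132) and passed without replicate 3 labelled CD1dKOxE7 at day 28 (-0.67 ± 0.16, adjusted p = 0.00522). The E7 against C57 difference was not called between days for any of the 10 genes by edgeR or by DESeq2. Of all genes, edgeR called 0.167% (0.148% higher, 0.0185% lower). Among the 10, only Klf4 had an unadjusted p under 0.05 (-0.60 ± 0.22, adjusted p = 0.394), and the share of all genes under it was not taken. Between ear and day 28 grafts, the E7 difference was smaller in grafts for Ovol1 (-0.81 ± 0.19, adjusted p = 0.0138) and Znf750 (-0.67 ± 0.17, adjusted p = 0.0176). The Znf750 call ended without C57 ear replicate 3 (0.0581) or C57 graft replicate 1 (0.0606), and Klf4 (-0.62 ± 0.20, adjusted p = 0.0621) passed without E7 graft replicate 3 (0.0311) and by DESeq2 (0.0419).

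The wider Notch pathway, 42 further genes of which 40 were tested, moved in both directions. In E7 ear 12 rose and 18 fell, a median of -0.11. These shares stand beside the 32.6% of all genes that were higher and the 32.7% that were lower. Of 5 ligands of the Delta family and its relatives 4 were tested and all 4 fell. Of the glycosylation enzymes 0 of 5 rose and 4 fell by edgeR, and of the 5 targets tested 1 rose and 3 fell. Among 7 proteases 3 rose and 1 fell, among 11 genes of ubiquitin and trafficking 5 rose and 4 fell, among 6 of the nuclear complex 2 rose and 1 fell, and of the other 2 receptors 1 rose and 1 fell. By smallest adjusted p, the named genes were Neurl1b, a ubiquitin ligase for Notch ligands (1.10 ± 0.09, adjusted p = 1.46e-06), the coactivator Maml2 (-1.10 ± 0.09, adjusted p = 1.63e-06) and the Deltex gene Dtx3 (-0.74 ± 0.08, adjusted p = 7.54e-06). At day 14, 3 rose and 7 fell in E7 against C57, led by Dtx3 (-0.68 ± 0.13), the ligase Mib2 (-0.41 ± 0.09) and the O-fucosyltransferase Pofut1 (-0.38 ± 0.08). At day 28, 5 rose and 5 fell, led by Maml2 (-0.77 ± 0.13), Adam10, a protease that cleaves Notch receptors (0.56 ± 0.11), and Pofut1 (-0.39 ± 0.08). Of all genes, 15.8% were higher and 14.4% lower in E7 grafts at day 14, and 20.7% and 14.7% at day 28.

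In grafts labelled CD1dKOxE7 at day 14, 7 of the 40 Notch pathway genes rose and 7 fell against E7. Of all genes 15.1% rose and 14.8% fell. The fringe enzyme Lfng was at a mean of 59.6 CPM against 26.3 CPM (1.17 ± 0.19, adjusted p = 0.000302), Rbpj at 87.9 against 56.6 CPM (0.62 ± 0.10, adjusted p = 0.000337) and Maml3 at 32.3 against 49.3 CPM (-0.62 ± 0.11, adjusted p = 0.000584). Lfng and Rbpj are used by lymphocytes as well as by epidermis, and leukocyte markers were higher in the same grafts; their part in the result was not tested. At day 28, 0 of the 40 were called by edgeR and 1 by DESeq2, where edgeR called 0.21% of all genes. An unadjusted p under 0.05 was found for 7, and the share of all genes under it was not taken.

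Of 32 other epidermal transcription factors, all tested, 23 rose and 4 fell in E7 ear, with 32.6% of all genes higher and 32.7% lower. The list had a median log2 fold change of 0.56, against 0.0025 for all genes and 0.50 for the 16 genes of the epithelial panel. List and panel medians were 0.32 and 0.28 in E7 against C57 at day 14, and 0.34 and 0.36 at day 28. The part of the epithelial share in these values was not tested. Elf3, an epithelial ETS factor, rose from a mean of 1.09 CPM to 30.2 CPM, or 27.5-fold (4.78 ± 0.27, adjusted p = 6.05e-07). The homeobox gene Barx2 rose (1.34 ± 0.10, adjusted p = 5.76e-07), and Sox9, a factor of the hair follicle, fell (-1.04 ± 0.07, adjusted p = 2.12e-07). At day 14, 14 rose and 1 fell in E7 against C57, with Prdm1 (0.72 ± 0.09, adjusted p = 9.18e-05), Elf3 (2.79 ± 0.39, adjusted p = 0.000199) and Ehf (1.32 ± 0.20, adjusted p = 0.000292) in front. At day 28, 16 rose and 3 fell, led by Elf3 (4.26 ± 0.45, adjusted p = 8.31e-06), Cebpb (1.20 ± 0.14, adjusted p = 1.43e-05) and Hopx (0.73 ± 0.09, adjusted p = 2.69e-05). Among all genes 15.8% rose and 14.4% fell at day 14, and 20.7% rose and 14.7% fell at day 28.

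Against E7, 2 of the 32 rose and 11 fell in grafts labelled CD1dKOxE7 at day 14, where 15.1% of all genes rose and 14.8% fell. The list had a median log2 fold change of -0.27 and the epithelial panel one of -0.32. The 2 factors that rose were Ets1 (1.24 ± 0.15, adjusted p = 2.77e-05) and Satb1 (1.27 ± 0.16, adjusted p = 3.7e-05), which lymphocytes also express. Rora fell from a mean of 60.7 to 16.7 CPM (-1.88 ± 0.25, adjusted p = 6.75e-05). At day 28, 0 of 32 were called by edgeR and 1 by DESeq2, where edgeR called 0.21% of all genes. An unadjusted p under 0.05 was found for 7, and the share of all genes under it was not taken.

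The genes whose pattern over the 8 groups was most like each of the 10 were ranked among 15207 genes, by the root mean square difference of group means on the log2 CPM scale after centring each gene; lower is more alike. For Ovol1, whose own spread was 0.66, they were Ccdc71l (0.13), Cers3 (0.14) and Il1f5 (0.14). For Klf4 they were Cracdl, Rab5a and Lgalsl (0.12 to 0.13), for Grhl3 Rpa1, Cenpi and Haus5 (0.10 to 0.12) and for Znf750 Zmynd19, Nipal4 and Cpeb2 (0.07 to 0.09). For Jag1 they were Flna, Entpd1 and Ppt2 (0.11 to 0.12), for Jag2 Plec, Srrm4os and Nfic (0.09), for Notch3 Hmgn3, Mast1 and Ptpru (0.09 to 0.10) and for Notch1 Dvl3, Ube2o and Med25 (0.06 to 0.08). For Trp63 they were Slc25a40, Chd1l and Ndufb8 (0.08). Hes1, with a spread of only 0.07, had Alkbh8, Wnk1 and Icmt (0.03 to 0.04). None of the 10 genes was among the 3 most like another.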

How the data were processed

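The files hold whole-number read counts per gene, deposited by the authors, for 24 libraries of 27180 genes, the E7 transgene among them. Each library held 6550011 to 13814448 counts, which limits the precision of low genes. Per the labels' protocols, RNA was extracted with Trizol and a Qiagen RNeasy kit and libraries were made with an Illumina TruSeq RNA kit. Per the submitters' processing notes, bcl2fastq 1.8.4, Trimmomatic, FastQC and mm10 were used; the aligner, the counter, its annotation and its strand setting are not given in the sources used here. Groups were read from the labels, with dpg taken as days after grafting.

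Counts were tested with edgeR 4.0.16 (R 4.3.3): TMM scaling, filterByExpr (minimum count 10, minimum total count 15), robust quasi-likelihood F tests and Benjamini-Hochberg adjustment over all genes tested, called below 0.05. The ear libraries (6), the graft libraries (18) and, for differences between tissues, all 24 were fitted separately. The SE is the log2 fold change over the square root of F. Levels are CPM, counts per 1000000 over TMM-scaled sizes of all 24 libraries. The ratio to the epithelial panel uses a pseudocount of 0.5 and an exact two-sided permutation test. Python 3.11.15, pandas 2.3.3 and matplotlib 3.10.9 were used besides, and the fitting code was tested on simulated data.

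All 24 pairs of libraries within a group differed beyond counting noise (chi-square per degree of freedom 3.611 to 29.411), so none was counted as a duplicate. The members and the gene lists were chosen with earlier results of these data known. Every member is described; of each pathway list, up to 3 called genes with the smallest adjusted p are named per comparison, and 3 genes are named as most like each member. Promoters come from RefSeq (GRCm38.p6), exon lengths and overlaps from GENCODE vM21. Alternatives were RLE and upper quartile scaling, 2 other filters, DESeq2 1.42.0, other sets of libraries in the fit, a replicate block, basal markers as the denominator and leaving out each library.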

Additional observations from a re-analysis of the deposited data

Results flagged for a closer look

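For 7 values, an effect differed between days or tissues by a test of the difference itself (edgeR's quasi-likelihood test with Benjamini-Hochberg adjustment). The difference between grafts labelled CD1dKOxE7 and E7 grafts was higher at day 28 than at day 14 by 1.15 on the log2 scale for Klf4 (adjusted p = 0.00467), by 1.38 for Ovol1 (adjusted p = 0.0012) and by 0.90 for Znf750 (adjusted p = 0.00616). Without replicate 3 labelled CD1dKOxE7 at day 28 these values were 1.30, 1.56 and 1.06. The difference between E7 and C57 skin was higher in grafts than in ear for Jag2, by 0.61 at day 14 (adjusted p = 0.026) and by 0.63 at day 28 (adjusted p = 0.0311), which share the ear libraries. At day 28 it was lower than in ear for Ovol1 (-0.81, adjusted p = 0.0138) and Znf750 (-0.67, adjusted p = 0.0176). Ear and graft libraries ran on different flow cells, and the part of this in the differences between tissues was not tested. Groups of 3 libraries are too small for a test of single libraries as outliers.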

How the results depend on the processing

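Counts of called genes among the 10 stayed within 1.5 times of those reported with these exceptions. For C57 grafts at day 28 against day 14 (2 called), 1 was called with upper quartile scaling, 1 without a filter on low counts and 4 in a fit of these groups alone; for grafts labelled CD1dKOxE7 at day 28 against day 14 (4 called), 1 in a fit of these groups alone. Leaving out each library gave 7 to 7 calls in E7 against C57 ear, 4 to 5 at day 14 and 2 to 4 at day 28; 5 to 6 and 0 to 1 for CD1dKOxE7 against E7 at days 14 and 28; 1 to 3, 2 to 3 and 1 to 4 between days in C57, E7 and CD1dKOxE7 grafts; 0 to 0 and 3 to 4 for the difference between days in the E7 and the CD1dKOxE7 effect; 0 to 1 and 1 to 3 for day 14 and day 28 grafts against ear; and 30 to 34 of 50 values relative to the panel.

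Over all genes, the count called moved by more than 1.5 times as follows. For CD1dKOxE7 against E7 at day 28 (34 called) it was 65 with a replicate block, 3 in a fit of these groups alone, 125 with all 24 libraries and 244 by DESeq2, and 4 to 304 without 1 library. For the difference between days in the CD1dKOxE7 effect (2080) it was 1240 without E7 day 14 replicate 1, and 1099, 1130 and 3956 without CD1dKOxE7 day 28 replicate 1, 2 and 3. For the E7 effect between days (27) it was 62 with all 24 libraries, 152 by DESeq2 and 12 to 72 without 1 library. Between days, E7 grafts (2778) had 1211 and 1480 without day 14 replicate 1 and 2 and 1419 and 1422 without day 28 replicate 1 and 2; grafts labelled CD1dKOxE7 (3660) had 1308 in a fit of these groups alone and 2264 and 2022 without day 28 replicate 1 and 2. E7 against C57 at day 14 (4889) had 3043 without C57 replicate 3. For grafts against ear, it was 1394 without C57 graft replicate 1 at day 14 (2098), and 786, 787 and 743 without C57 ear replicate 3, E7 ear replicate 3 and E7 graft replicate 1 at day 28 (1234).

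Upper quartile scaling moved the median of all genes in ear from 0.0025 to -0.12 and the called genes that were higher from 5129 of 10267 to 3993 of 10214 (39.1%). That share moved from 58.4% to 47.9% in E7 against C57 grafts at day 28, from 37.1% to 52.2% between days in C57 grafts, and from 31.8% to 55.2% and from 30.9% to 49.0% for the E7 effect in day 14 and day 28 grafts against ear.

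Log2 fold changes that changed sign were all uncalled. Notch1 in ear was -0.032 with upper quartile scaling. Between days, Hes1 in C57 grafts was 0.024 with upper quartile scaling and 0.0061 without a filter, and Jag2 in grafts labelled CD1dKOxE7 was 0.0027 with upper quartile scaling. For the E7 effect, day 28 against day 14, Jag2 was -0.0040 with RLE, -0.011 with upper quartile and -0.0027 with DESeq2. For day 14 grafts against ear, Klf4 was 0.027 with RLE, 0.092 with upper quartile, 0.040 without a filter and 0.026 with DESeq2. For day 28 grafts against ear, Hes1 was 0.0017 with RLE, 0.044 with upper quartile, 0.0036 without a filter and 0.0014 with DESeq2.

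Leaving out 1 library changed the sign of the following values, given as ranges. In ear, Jag1 ran from -0.14 to 0.021. In E7 against C57 at day 28, Jag2 ran from -0.20 to 0.033. In CD1dKOxE7 against E7 at day 28, Jag1 ran from -0.17 to 0.14, Hes1 from -0.014 to 0.21 and Grhl3 from -0.13 to 0.20. Between days in C57 grafts, Jag2 ran from -0.020 to 0.26, Hes1 from -0.092 to 0.0089 and Klf4 from -0.032 to 0.17. Between days in grafts labelled CD1dKOxE7, Trp63 ran from -0.21 to 0.035, Notch3 from -0.11 to 0.10, Jag2 from -0.080 to 0.083, Hes1 from -0.0086 to 0.083 and Grhl3 from -0.13 to 0.35. For the E7 effect, day 28 against day 14, Notch3 ran from -0.10 to 0.064, Jag1 from -0.14 to 0.060 and Jag2 from -0.10 to 0.17. For day 14 grafts against ear Klf4 ran from -0.076 to 0.078, and for day 28 grafts Notch1 from -0.039 to 0.10 and Hes1 from -0.15 to 0.061. Relative to the epithelial panel, Trp63 ran from -0.012 to 0.11 and Klf4 from -0.083 to 0.10 in E7 against C57 at day 28. In CD1dKOxE7 against E7, Notch1 ran from -0.10 to 0.054 and Grhl3 from -0.17 to 0.098 at day 14, and Jag1 from -0.17 to 0.23 and Grhl3 from -0.031 to 0.18 at day 28; all 6 overlapped between groups with every library in. The cause was not tested.

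The labels do not say whether equal replicate numbers pair the grafts. Over 45 same-numbered pairs the correlation of deviations ran from -0.349 to 0.294, with a median of 0.025 and 10 above 0.1. Differently numbered pairs ran from -0.38 to 0.465. Deviations over all genes cannot show whether grafts were paired, since other differences between libraries enter them. Of the 15 pairs of groups, C57 and CD1dKOxE7 grafts at day 14, which are not compared here, had all 3 same-numbered pairs above 0.1 (0.107, 0.117 and 0.186). With the number as a block, 4 genes in place of 5 were called in E7 against C57 at day 14 (Jag1 at -0.40, adjusted p = 0.0551) and 3 in place of 2 between days in C57 grafts (Znf750 at -0.36, adjusted p = 0.0241).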
